A study of Mus musculus with 2 samples.

Results

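The cells described here are glutamatergic neurons of the newborn mouse cerebellar dissection that carried transcripts of the LIM-homeodomain factor Lhx9, the TALE-homeodomain factor Meis2 and the vesicular glutamate transporter Slc17a6. A barcode was selected when it held at least 1 unique molecular identifier (UMI, 1 counted RNA molecule) of each of these 3 genes and no UMI of Gad2, which makes the inhibitory transmitter GABA, or of Eomes, a factor of unipolar brush cells. Barcodes had to show 500 or more genes and no more than 10% of UMIs from mitochondrial genes to enter. It selected 514 of 16547 kept barcodes, out of 19137 deposited. Because these genes chose the cells, their levels are given only as a description.

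The study profiled single cells from cerebellar lobules III and IV of mice at postnatal day 1 by droplet sequencing of 3' ends, after papain dissociation. One library came from Cxcr4+/+ control mice and one from Cxcr4+/1013 littermates, both of the B6.129S2-Cxcr4tm1.1Bala line. The genotype label of the second library is Cxcr4+/1013, while its extraction text names the mice Cxcr4+/-. The labels name no promoter or Cre driver that would limit the allele to a cell type. Each library held female and male cells and hence more than 1 animal, and how many animals were pooled is not stated in the labels. With 1 library per genotype there is no replicate: values are set side by side, no test of a genotype difference was possible, and genotype, animals and handling cannot be told apart. Intervals below are 95% intervals that cover counting error only.

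Excitatory neurons that leave the rhombic lip early settle in the deep cerebellar nuclei, the output stations of the cerebellum, and are known for Tbr1, Meis and Lhx2/Lhx9 expression. The tectum, the midbrain roof that lies just in front of the cerebellum, also makes glutamatergic neurons with Lhx9, Meis2 and Slc17a6, and its neurons are known for Tfap2d, Pou4f and Otx2. The engrailed genes En1 and En2 mark the territory on both sides of the midbrain-hindbrain border. CXCR4 is the receptor of the chemokine CXCL12, which guides cerebellar granule cell progenitors and other migrating cells.

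Promoter windows of Lhx9 and Slc17a6 are shown because these genes chose the cells and their windows hold a short recognition core of the MEIS or homeodomain factor families. Each window runs from 250 bases before to 50 bases after a RefSeq transcript start (GRCm38.p6), and capitals mark a match to TGACAG, the MEIS core, or to TAATTA, a homeodomain core, searched on both strands. The Lhx9 window lies at chr1:138842395-138842694 on the minus strand and holds 1 MEIS core. The Slc17a6 gene has windows at more than 1 start: the one at chr7:51621580-51621879 holds a MEIS core on the opposite strand (CTGTCA), and the one at chr7:51624387-51624686 holds a homeodomain core, both on the plus strand. The Meis2 window at chr2:116064570-116064869 held neither core and is not shown.
Lhx9: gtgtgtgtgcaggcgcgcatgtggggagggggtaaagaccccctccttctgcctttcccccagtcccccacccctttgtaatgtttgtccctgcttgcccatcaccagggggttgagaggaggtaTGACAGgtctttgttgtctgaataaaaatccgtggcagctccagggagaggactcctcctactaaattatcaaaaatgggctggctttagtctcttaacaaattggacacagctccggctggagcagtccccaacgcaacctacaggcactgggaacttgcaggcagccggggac
Slc17a6, first start: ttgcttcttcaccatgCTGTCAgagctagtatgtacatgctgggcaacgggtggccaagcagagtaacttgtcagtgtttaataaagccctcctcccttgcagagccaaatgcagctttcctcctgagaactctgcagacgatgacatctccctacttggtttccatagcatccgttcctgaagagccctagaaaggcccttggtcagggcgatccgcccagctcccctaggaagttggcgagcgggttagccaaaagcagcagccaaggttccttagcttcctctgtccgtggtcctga
Slc17a6, second start: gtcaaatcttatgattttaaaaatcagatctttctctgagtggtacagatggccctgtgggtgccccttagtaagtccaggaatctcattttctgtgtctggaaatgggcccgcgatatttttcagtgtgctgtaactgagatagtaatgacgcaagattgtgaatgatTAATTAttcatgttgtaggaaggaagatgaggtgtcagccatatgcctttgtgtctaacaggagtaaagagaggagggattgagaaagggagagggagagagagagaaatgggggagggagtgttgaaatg
Among the 20 leading genes of the selected cells, named further on, 16 had a window in the table. The MEIS core was in 4 of these 16 (25%; Lhx9, Slc17a6, Tcf7l2 and Gm28905) and in 21.6% of 27025 genes with a window. The homeodomain core was in 3 of the 16 (18.8%; Slc17a6, Tmem163 and Gm28905) and in 6.12% of all genes with a window. A match describes the letters of the window and is no evidence of binding.

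The selected cells made up about the same share of both libraries. In the control library 253 of 8353 kept barcodes were selected, or 3.03% (exact Clopper-Pearson interval 2.67 to 3.42). In the mutant library it was 261 of 8194, or 3.19% (2.82 to 3.59). The ratio of the shares, mutant to control, was 1.05 (exact conditional binomial interval 0.881 to 1.26), so a difference between the libraries was not detectable at this depth. The selected cells held 2961836 UMIs (control) and 3449224 UMIs (mutant), with medians of 11469 and 12707 UMIs per cell against 12101 and 13557.5 over all kept barcodes. Both libraries were filtered alike; 25 barcode sequences occurred in both libraries and none of them was selected in both.

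The cut at 1 UMI passed through a continuous range of Lhx9 counts. The median selected cell held 5 Lhx9 UMIs in each library, 12 Meis2 UMIs in the control and 18 in the mutant, and 2 and 3 Slc17a6 UMIs. Exactly 1 Lhx9 UMI was found in 37 control and 24 mutant selected cells, whose Tfap2d detection was 67.6% and 79.2%. Barcodes that met every other condition but had no Lhx9 UMI numbered 54 and 43, and Tfap2d was detected in 37.0% and 60.5% of them. For Slc17a6, 61 control and 52 mutant barcodes failed only through having none, and Tfap2d was detected in 62.3% and 69.2% of these. The barcodes just outside the Slc17a6 and Lhx9 limits thus often carried Tfap2d too. A single Gad2 UMI kept out 14 and 8 barcodes, and a single Eomes UMI kept out 15 and 12.

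Against all other kept barcodes, the leading genes of the selected cells included several transcription factor genes. Levels are given as CPM, the UMIs of a gene per 1000000 UMIs summed over the selected cells of a library. Of 3796 genes with enough UMIs, 22 (0.58%) were at least 10-fold higher than in the other kept barcodes in both libraries. This count describes cells chosen by expression and tests nothing. Tfap2d, an AP-2 factor of the tectum, stood at 393 CPM in the control and 553 CPM in the mutant, 57.0-fold and 75.8-fold above the other barcodes. Lhx2, the close relative of Lhx9, stood at 372 and 441 CPM, 52.1-fold and 63.2-fold above them. Both lay close to the selecting genes themselves, since Lhx9 was 67.7-fold and 82.1-fold and Meis2 30.3-fold and 39.3-fold above.

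The next leading genes were further regulators and neuronal surface proteins. Zfhx3, a zinc-finger homeobox factor, stood at 2280 and 2574 CPM. Tcf7l2, a nuclear effector of Wnt signalling, stood at 1601 and 1646 CPM. Shox2, a homeobox factor, stood at 99.3 and 126 CPM, 21.7-fold and 32.8-fold above the other barcodes. The remaining leading genes were the non-coding Gm32647 and Gm28905, the POU factor Pou3f1, the vesicular zinc transporter Tmem163, the secreted Tafa1, AW551984, Parm1, the zinc-finger factor Bcl11b, the transmembrane collagen Col25a1, the heparan sulfate enzymes Hs3st2 and Ndst4, and Scml4. Their folds over the other barcodes lay between 11.3 for Ndst4 and 25.5 for Gm32647 in the control library.

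Because detection depends on depth, shares of cells were compared after each cell was thinned to 5000 UMIs, which left out 28 control and 25 mutant cells. Tfap2d was then detected in 72.4% of control and 80.7% of mutant selected cells, where unthinned values were 85.4% and 90.8%. It was detected in 0.725% and 0.314% of granule progenitors (at least 1 UMI each of Atoh1 and Barhl1; median 17351.5 and 18860 UMIs before thinning), a class that should lack it. Lhx2 was detected in 74.7% and 73.3% of selected cells and in 16.6% and 10.2% of midbrain-type GABAergic cells (at least 1 UMI each of Gad2, Gata3 and Tal1; median 9333.5 and 9007 UMIs). En1 was detected in 89.0% and 91.8% of the selected cells and in 54.1% and 68.0% of the GABAergic cells. Zfhx3 did not set these classes apart, at 98.8% of selected cells in each library and 99.3% and 99.8% of the GABAergic cells. Otx2 showed the opposite order, with 13.6% and 10.7% of selected cells and 73.6% and 76.2% of the GABAergic cells.

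**Figure D1:**
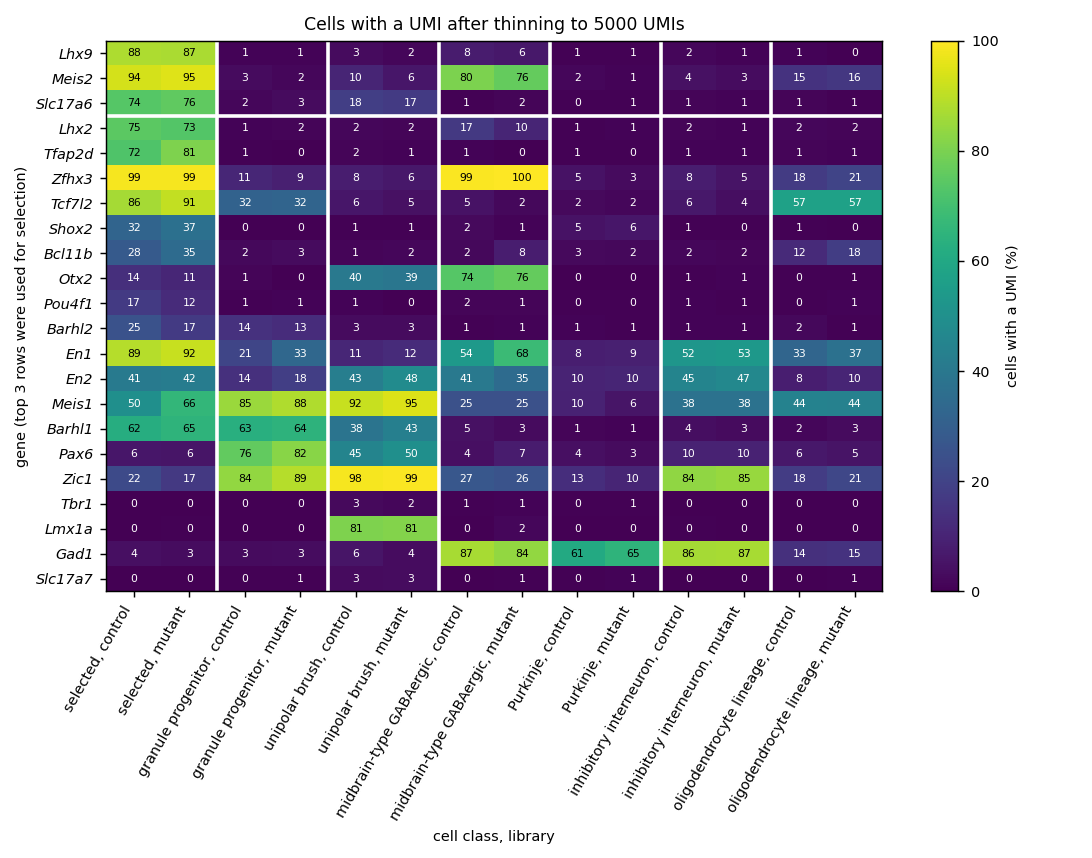
Percent of cells with at least 1 UMI after each cell was thinned to 5000 UMIs, for 22 genes (rows) in the selected cells and 6 comparison classes in the control and mutant libraries (columns). The top 3 rows were used for selection; Tfap2d and Lhx2 are bright in the selected columns and dark in all 6 classes, while Tbr1 and Lmx1a are at or near 0 in the selected columns.

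The label given to these cells, nuclear or midbrain, was checked against both sets of markers. Tbr1, a factor of medial cerebellar nuclear neurons, had 0 UMIs in 253 control cells, which allows a share of up to 1.19% of cells with a UMI, and 1 UMI in 261 mutant cells. Lmx1a, a factor of roof plate and rhombic lip derivatives, had 0 and 3 UMIs. Pax6, a rhombic lip factor, stood at 17.9 and 22.3 CPM, below the 129 and 168 CPM of the other kept barcodes. Barhl1, shared by rhombic lip and midbrain, stood at 267 and 270 CPM and above the other barcodes at 56.6 and 68.9 CPM. Of the 20 genes of the nuclear list, 8 were at least 2-fold above the other barcodes in each library. Among these, Lhx9 and Meis2 were set by the selection and Barhl1 is shared with the midbrain. Lhx2 (52.1-fold and 63.2-fold above) and Pou3f1 (20.9-fold and 44.5-fold above) were not used by the rule. Tbr1 and Lmx1a were at or near 0.

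Of the tectal list, Tfap2d was detected in 85.4% of control and 90.8% of mutant selected cells and Tcf7l2 in 91.3% and 94.3%. Pou4f1, Pou4f2, Otx2 and Barhl2 were each detected in a smaller fraction. The POU4 factors of sensory and tectal neurons stood at 57.7 and 45.5 CPM (Pou4f1), 34.8 and 23.8 CPM (Pou4f2) and 49.6 and 37.7 CPM (Pou4f3), and Pou4f1 stood at 2.11 and 1.86 CPM in the other barcodes. Otx2, the factor of forebrain and midbrain identity, stood at 34.8 and 23.2 CPM and Barhl2 at 66.5 and 45.2 CPM. En1 and En2 stood at 545 and 651 CPM and at 103 and 109 CPM. Pax7, a factor of the tectal precursors, had 4 and 3 UMIs, and Gbx2, of the anterior hindbrain and thalamus, had 2 and 1. All 10 Hox genes of the hindbrain list were at 0 in both libraries. Of the 20 tectal genes, 13 in the control and 10 in the mutant were at least 2-fold above the other barcodes. Tectal genes were thus present and Tbr1 was near 0. Other nuclear genes were in part shared with the midbrain or set by the selection. Lhx2 and Pou3f1 of the nuclear list were high without being used by the rule. The cells are called here by the rule that chose them.

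Their transmitter genes were those of Slc17a6 glutamatergic cells. Slc17a7, the other main vesicular glutamate transporter, had 0 and 2 UMIs, and Slc17a8 had 5 and 8. Gad1, the second enzyme of GABA synthesis and not part of the rule, stood at 14.5 and 9.86 CPM against 159 and 186 CPM in the other kept barcodes. Chat, Slc18a3, Slc6a3, Slc6a4, Dbh and Fev, which define cholinergic and monoamine neurons, were all at 0. Among the neuropeptide genes, Sst (somatostatin) stood at 94.9 and 117 CPM, Cck (cholecystokinin) at 142 and 70.5 CPM and Tac1 (substance P precursor) at 41.5 and 44.1 CPM.

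Sex split the selected cells differently in the 2 libraries, although sex was not part of the rule. Cells with Xist and no Y-linked UMI were called female and cells with a Y-linked UMI and no Xist male. The control library had 148 female and 69 male selected cells, with 24 showing both signals and 12 neither. The mutant library had 221 female and 14 male, with 24 showing both and 2 neither. Female cells were thus 68.2% of sexed selected cells in the control (interval 61.6 to 74.3) and 94.0% in the mutant (90.2 to 96.7). Among all other kept barcodes the female share was 57.1% and 48.0%, so the mutant library as a whole was not mainly female.

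The near-equal shares of the 2 libraries therefore summed unequal shares within each sex. Of female kept barcodes, 3.86% in the control and 6.41% in the mutant were selected, a ratio of 1.66 (interval 1.34 to 2.06). Of male kept barcodes, 2.43% and 0.399% were selected, a ratio of 0.164 (0.0855 to 0.295). The median UMI count of female and male selected cells was 11515.5 and 11098 in the control and 12478 and 13568.5 in the mutant. The difference between the sexes was not tested, since a library is the unit and there is 1 per genotype, and sex cannot be told apart from the animals that were pooled.

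The midbrain-type GABAergic cells also had a male ratio far below 1. These GABAergic cells were 1.03% of kept barcodes in the control and 0.879% in the mutant, with a ratio of 1.18 in female cells (0.781 to 1.79) and 0.297 in male cells (0.134 to 0.610). Their female share was 61.5% and 82.3%. In granule progenitors the ratio was 1.21 in female and 1.25 in male cells, and in unipolar brush cells 1.40 and 1.61. Purkinje cells had 0.912 and 0.806, inhibitory interneurons 1.26 and 1.39, and oligodendrocyte lineage cells 1.33 and 1.27. In these 5 classes the female and male ratios lay on the same side of 1.

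**Figure D2:**
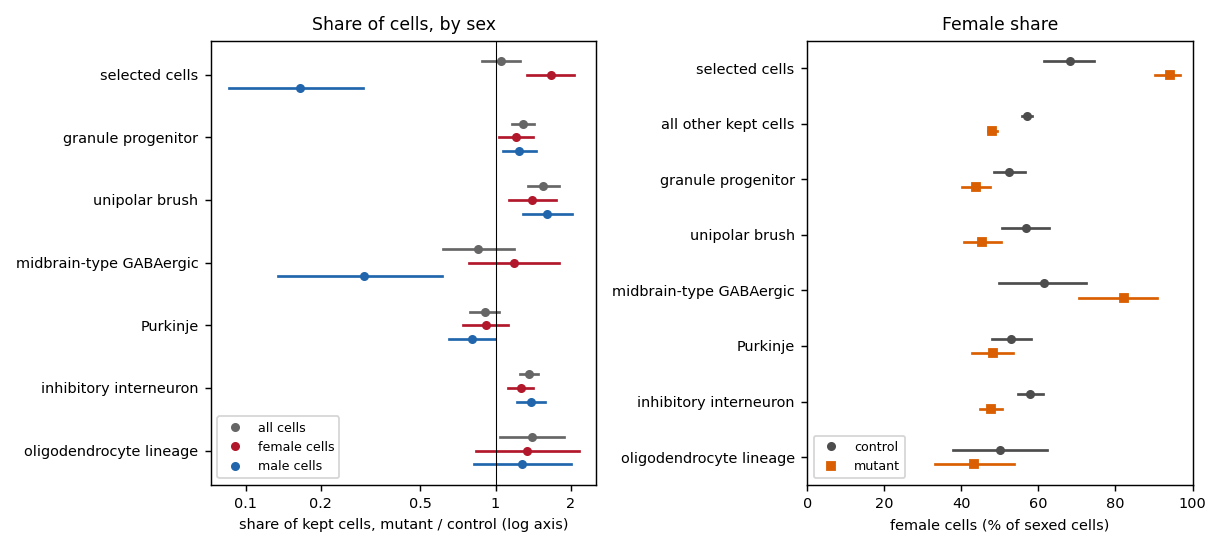
Left: share of kept cells in each class, mutant over control on a log axis, for all, female and male cells; right: female percent of sexed cells by class and library; bars are 95% intervals of counting error. The selected cells and the midbrain-type GABAergic cells have male ratios of 0.164 and 0.297, and in each of the other 5 classes the female and male ratios are on the same side of 1.

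Female and male selected cells were also compared within each library. Of 6783 genes tested, 77 (1.14%) were at least 1.5-fold higher in female and 50 (0.737%) at least 1.5-fold higher in male cells in both libraries. In the control library alone 344 were higher in female and 312 in male cells, and in the mutant library alone 1192 and 822. Whether more genes passed in both libraries than unrelated libraries would give was not tested. The mutant library had 14 male cells, so its values are coarse, and sex cannot be told apart from the animals. Onecut1, a cut-homeobox factor, stood at 17.2 CPM in female and 45.6 CPM in male control cells, and at 17.7 and 67.2 CPM in the mutant. Without the male cell richest in Onecut1 the male levels were 33.2 CPM in the control and 35.2 CPM in the mutant. Nxph1, a secreted neurexin ligand, stood at 9.16 and 65.1 CPM in the control and at 14.1 and 67.2 CPM in the mutant, but 1 cell held 48 of its 50 male UMIs in the control and 1 cell 14 of 15 in the mutant. Without the richest cell of each group Nxph1 was lower in male cells, at 6.34 and 2.68 CPM, then 10.3 and 5.31 CPM. Eya1 (16.6 and 33.9 CPM, then 12.7 and 94.1 CPM) and Lmo1 (12.6 and 43.0 CPM, then 22.2 and 44.8 CPM) were also higher in male cells, though a single mutant male cell held all 10 Lmo1 UMIs and another 12 of 21 Eya1 UMIs. Rgs6, a regulator of G-protein signalling (85.3 and 32.6 CPM, then 112 and 26.9 CPM), and the glypican Gpc5 (223 and 26.1 CPM, then 80.9 and 26.9 CPM) were higher in female cells. Onecut1 levels were highest in sub-cluster 1, at 90.8 and 130 CPM, and Lmo1 led sub-cluster 4.

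The selected cells were not uniform and fell into 8 sub-clusters (Leiden clustering at resolution 0.5), which are numbered and left unnamed because their leading genes chose them. Genes named here for the sub-clusters were chosen after their values were seen. Sub-cluster 1, with 66 cells, was led by Tfap2b (1117 CPM in control and 898 in mutant cells), the axonal protein gene Islr2 and the receptor tyrosine kinase gene Alk. Otx2 was detected in 50% and 54.2% of its cells, the highest shares of the 6 sub-clusters that were not mostly doublet calls, and Tcf7l2 stood at 684 and 212 CPM. Sub-cluster 2, with 68 cells, was led by the phosphatase gene Ptprm and by Cck (309 and 292 CPM), and Pou4f1 stood at 124 and 173 CPM in it. Both shared Cck, which stood at 360 and 268 CPM in sub-cluster 1.

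Sub-clusters 3 and 5 shared high Foxp2, a forkhead factor, and Ndst4. Sub-cluster 3, with 89 cells, was led by Pdzrn4, the ephrin receptor Epha6 and Pcdh15, and Foxp2 stood at 1185 and 1213 CPM. Sub-cluster 5, with 73 cells, was led by Sst (656 and 486 CPM), 12.1-fold or more above the other selected cells, and by the transcription factor Mef2c. Its Foxp2 levels were 1402 and 2094 CPM. Otx2 and Pou4f1 were at 0 UMIs in sub-cluster 5 in both libraries. The highest Sst levels were thus in the sub-cluster without Otx2 or Pou4f1 UMIs, and the highest Cck levels in sub-clusters 1 and 2, which had both.

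Sub-clusters 4 and 7 were the other large groups. Sub-cluster 4, with 91 cells, was led by the LIM-only factor Lmo1, at least 16.8-fold above the other selected cells, by Kctd1 and by the early B-cell factor Ebf1 (390 and 494 CPM), and Shox2 stood at 239 and 322 CPM. Sub-cluster 7, with 88 cells, was led by Nrgn (neurogranin), the calcium release channel Ryr3, Tmem132c and Gm32647 (1144 and 1127 CPM). Tfap2d was detected in 66.7% to 97.2% of the cells of each of the sub-clusters 1 to 5 and 7 in either library. It was therefore spread over the sub-clusters, whereas Sst, Cck, Lmo1 and Tfap2b were concentrated.

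Sub-clusters 6 and 8 stood apart by depth and by markers of other cell types. Sub-cluster 6 had 26 cells with a median of 19434.5 UMIs, and its leading genes were Ube2c, Cadps2 and Ccnd2, with 7 granule lineage markers in at least 10% of its cells and at least 2-fold above the other selected cells in both libraries. Sub-cluster 8 had 13 cells with a median of 23419 UMIs, and it was led by Col3a1, Sparc and Gdf10, with 9 astroglia and 5 vascular markers past the same limits. A doublet caller (Scrublet) scored 24 of the 26 and 11 of the 13 as doublets, against 2 cells in all other sub-clusters. Values without these 39 cells are given below for each gene called higher or lower by name whose call they ended or whose ratio they moved by over 1.5-fold.

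**Figure D3:**
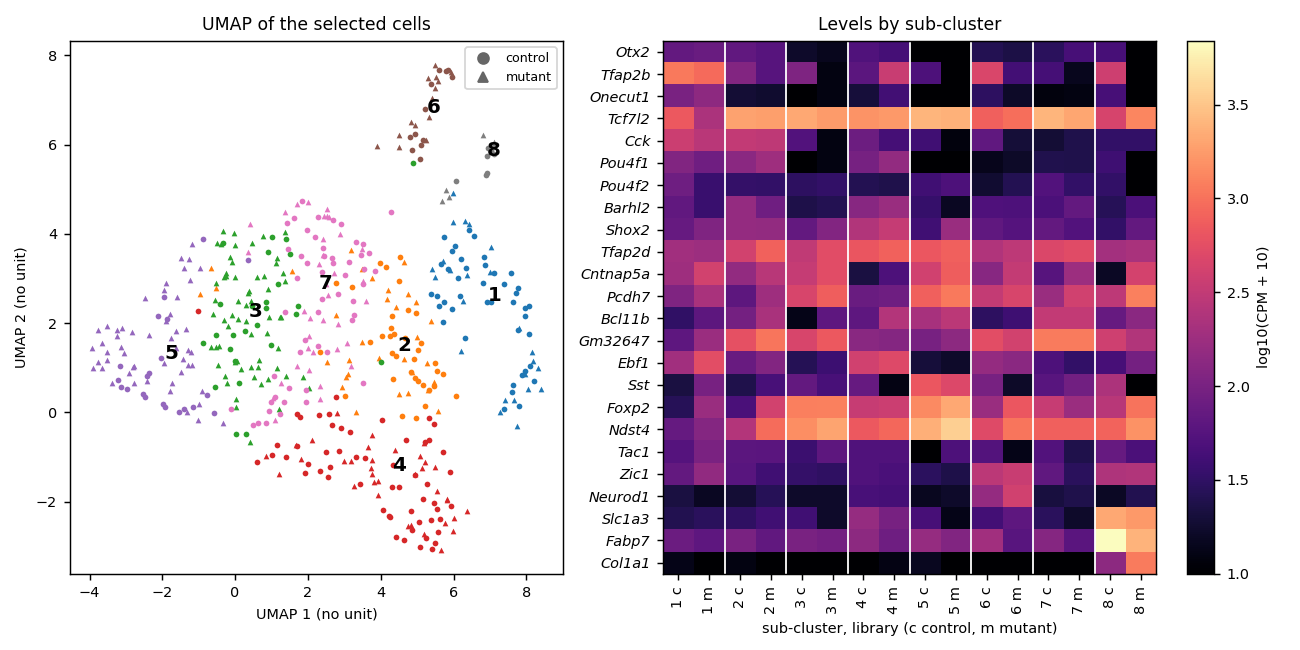
Left: UMAP of the 514 selected cells (axes have no unit), coloured by sub-cluster, with circles for control and triangles for mutant cells; right: log10(CPM + 10) of 24 genes in each sub-cluster and library. Sst is bright in sub-cluster 5, Cck in 1 and 2, Tfap2b in 1, and Fabp7 and Slc1a3 in 8.

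Between the libraries, most genes of the selected cells differed by little. A gene was counted as higher or lower when its CPM differed by at least 1.5-fold, among 10196 genes with at least 50 UMIs in the selected cells of both libraries together. By this rule 546 genes (5.36%) rose and 393 (3.85%) fell in the mutant cells, and the median log2 ratio was 0.03. The counting interval excluded equality for 454 of the genes that rose, and it spanned equality for 73.6% of all genes tested. The same rule gave no error between animals, so each ratio below describes these 2 libraries. Log2 ratios are mutant over control. Counts of list genes below are to be read beside the 5.36% and 3.85% over all tested genes.

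Cntnap5a and Pcdh7, both genes of cell-surface adhesion proteins, rose in the mutant cells. Cntnap5a, a contactin-associated protein (chr1:115684756-116587323, mm10), stood at 134 CPM in the control and 400 CPM in the mutant cells, a log2 ratio of 1.57 (1.41 to 1.74). The ratio was 1.48 in female selected cells, -0.11 in the other kept barcodes, and 1.49 without sub-clusters 6 and 8. Pcdh7, a protocadherin (chr5:57717967-58133230), stood at 207 and 562 CPM, a log2 ratio of 1.44 (1.31 to 1.57), with 1.28 in female cells and 0.00 in other barcodes. Both genes were higher in the mutant cells of all 8 sub-clusters. The median log2 ratio by sub-cluster was 1.32 for Cntnap5a (0.70 to 6.16) and 0.89 for Pcdh7 (0.12 to 2.10). In sub-cluster 5 Cntnap5a stood at 388 and 725 CPM. Pcdh7 stood there at 761 and 1115 CPM (0.55, short of 1.5-fold). Both genes were high in sub-cluster 3 (26 control and 63 mutant cells) and sub-cluster 5 (21 and 52). The part of cell numbers in the summed ratios was not tested.

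Maf, a basic leucine zipper factor (chr8:115682942-115707794), ranked first among the named genes that rose. It stood at 6.75 CPM (20 UMIs) in the control and 42.3 CPM (146 UMIs) in the mutant, a log2 ratio of 2.65 (1.97 to 3.40), with 2.73 in female cells and -0.24 in the other barcodes. Its UMIs came from few cells, 5.53% of control and 17.2% of mutant selected cells. By sub-cluster its mutant level was highest in sub-cluster 8 (122 CPM) and in sub-cluster 5 (89.8 CPM, against 14.9 CPM in the control). Sulf1, an extracellular sulfatase, stood at 7.77 and 29.3 CPM (log2 1.91, and 2.59 without sub-clusters 6 and 8), with 4 sub-clusters higher in the mutant and 3 lower. Chrna3, a nicotinic receptor subunit, rested on 7 and 45 UMIs (log2 2.46) and was higher in 7 of 8 sub-clusters.

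Several genes that rose did so in the other kept barcodes as well. Jund, an AP-1 factor, stood at 122 and 321 CPM in the selected cells and at 93.2 and 311 CPM in the other barcodes. Tmem158, a membrane protein gene, stood at 30.4 and 118 CPM (log2 1.96), against 1.88 in the other barcodes. Taf10, a general transcription factor subunit, and Suds3, a corepressor subunit, had log2 ratios of 2.10 and 1.67, with 1.38 and 1.29 in the other barcodes. Fjx1, a secreted kinase-like protein gene, had 2.07 and 0.89. These 5 genes therefore differed between the libraries in cells outside the selection too, and each was higher in all 8 sub-clusters.

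Col1a1 and Vtn, an extracellular matrix collagen and a plasma glycoprotein, rose through very few cells. Col1a1 had 26 and 149 UMIs, with 76.9% of the control and 43.6% of the mutant UMIs in a single cell, and Vtn had 12 and 71 with 83.3% and 49.3% in a single cell. Their log2 ratios of 2.30 and 2.35 contrasted with -2.83 and -2.20 in the other barcodes. Without sub-clusters 6 and 8 the Col1a1 ratio was -2.25, on 4 and 1 UMIs, and Vtn had 2 UMIs in each library and no ratio. Of the 10 vascular and meningeal markers 3 were tested and all 3 rose, with summed levels of 64.5 and 149 CPM against 413 and 115 CPM in other barcodes. Without the 2 sub-clusters all 3 were lower in the mutant, on 20 UMIs or fewer per library. Flt1 was at 0 in the mutant and Kcnj8 at 0 in the control selected cells.

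**Figure D4:**
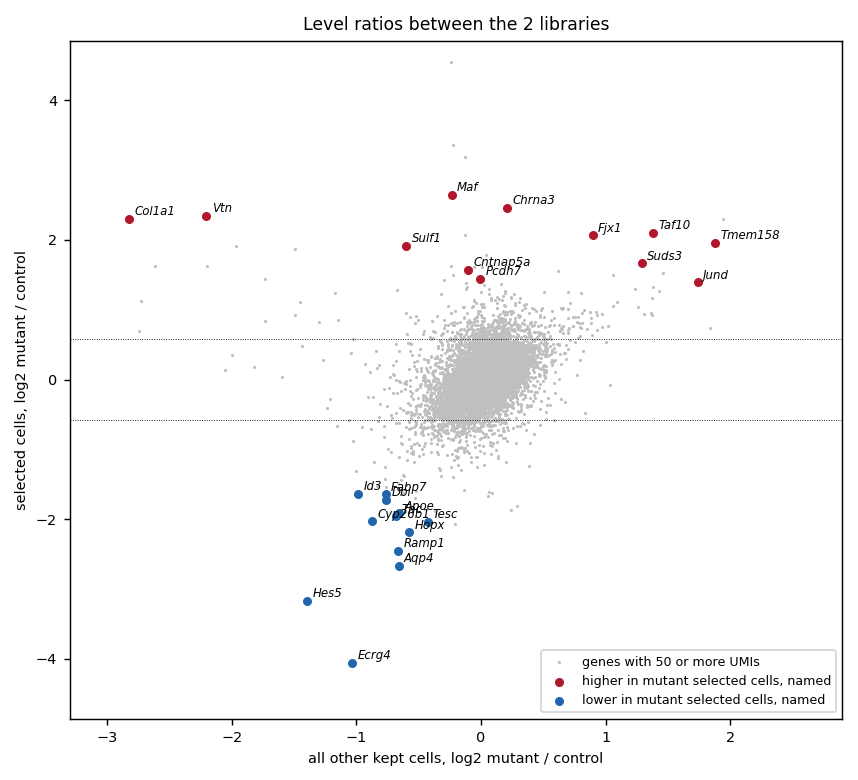
Log2 ratio of mutant to control in the selected cells (vertical axis) against the same ratio in all other kept barcodes (horizontal axis), 1 point per gene with at least 50 UMIs; dotted lines mark 1.5-fold and the named genes are coloured. Maf, Chrna3, Cntnap5a and Pcdh7 lie near 0 on the horizontal axis, Jund and Tmem158 are high on both, and Col1a1 and Vtn are high on one and low on the other.

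Of the 12 named genes that fell, 4 were in the astroglia list (Aqp4, Fabp7, Tnc and Hopx). Fabp7, a fatty acid binding protein of radial glia, stood at 508 and 163 CPM, and Dbi, an acyl-CoA binding protein, at 569 and 172 CPM, log2 ratios of -1.64 and -1.72. In female cells these were -0.85 and -0.78, in the other barcodes -0.77 and -0.76, and without sub-clusters 6 and 8 they were -0.46 and -0.69. Aqp4, the glial water channel, had 49 and 9 UMIs (log2 -2.66) and Hes5, a Notch effector, 108 and 14 (log2 -3.17). Without the 2 sub-clusters these ratios were -0.47 and -0.79. The other named genes Ecrg4, Apoe, Ramp1, Id3, Hopx and Cyp26b1 had log2 ratios between -4.05 (Ecrg4) and -1.64 (Id3). Without the 2 sub-clusters they were -1.70 for Ecrg4 (11 and 4 UMIs), -0.57 for Apoe, -0.73 for Ramp1 (7 and 5 UMIs), -0.44 for Id3, -1.25 for Hopx (8 and 4 UMIs) and -1.72 for Cyp26b1. Apoe, Id3, Fabp7 and Aqp4 were then short of 1.5-fold.

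Astroglial markers moved together with this group. Of the 10 markers 9 were tested, 8 fell, against 3.85% of all tested genes, and none rose, with a median log2 ratio of -1.48. Without sub-clusters 6 and 8 the median was -0.75, and 6 of the 8 remained at least 1.5-fold lower, with no minimum of UMIs applied. Of these 6, Aldh1l1 (11 and 6 UMIs), Gdf10 (17 and 12), Hopx (8 and 4) and Tnc (26 and 8) were then below the minimum for a tested gene. Only Slc1a3 (120 and 61 UMIs, log2 -1.22) and Sparcl1 (49 and 38 UMIs, -0.61) were lower and still above that minimum. The summed level of the 10 markers was 942 CPM in the control and 366 CPM in the mutant selected cells. In the other barcodes it was 2683 and 1678 CPM, and the median there was -0.66. None of the 10 was at 0, and Gfap had 1 and 2 UMIs. Sub-cluster 8 held the highest levels, with Fabp7 at 6918 and 2464 CPM, and it had 8 control and 5 mutant cells. How much of the fall came from glial RNA in the selected barcodes was not tested beyond these values. Tesc, a calcium-binding protein gene, had a log2 ratio of -1.86 without sub-clusters 6 and 8, on 55 and 18 UMIs. Tnc, an extracellular matrix gene, had -1.95 on its few UMIs. In the other barcodes they were -0.43 and -0.68. Tesc was highest in sub-cluster 1 (70.3 and 47.7 CPM), where its ratio was -0.56, short of 1.5-fold. That sub-cluster had 42 control and 24 mutant cells.

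**Figure D5:**
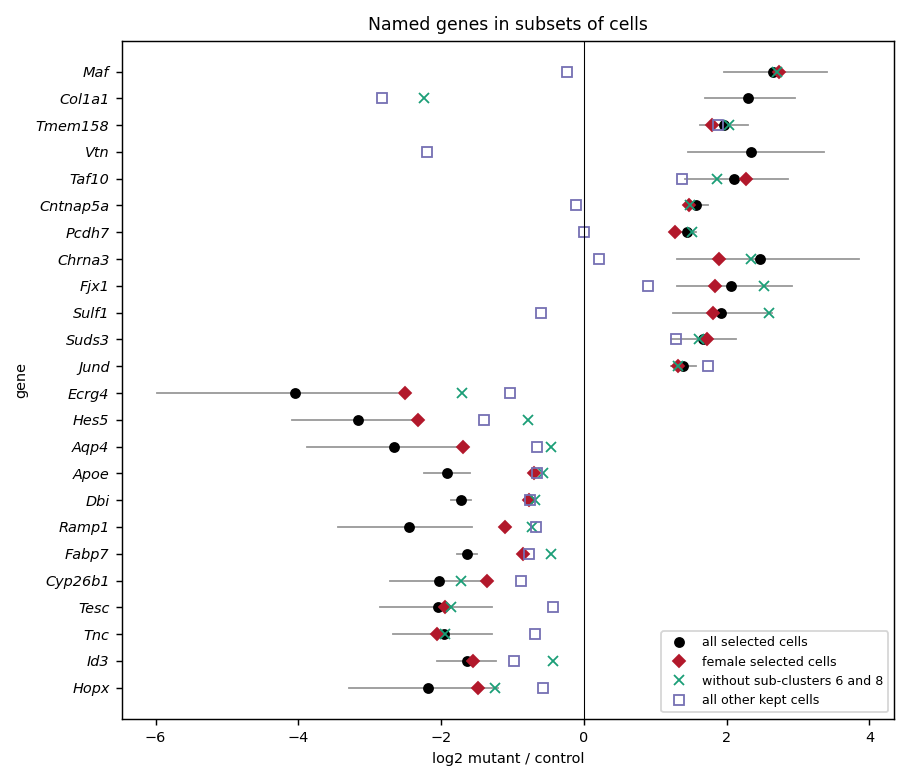
Log2 ratio of mutant to control for the 12 named genes that rose and the 12 that fell: all selected cells with 95% counting intervals (black), female selected cells, selected cells without sub-clusters 6 and 8, and all other kept barcodes. Maf, Cntnap5a and Pcdh7 have ratios of 1.28 or more in female cells and without sub-clusters 6 and 8, whereas Fabp7, Dbi, Apoe and Hes5 lie nearer to 0 without these sub-clusters.

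Within the cadherin family, adhesion molecules that sort neurons by type, 7 of 20 tested genes rose and 1 fell, where 5.36% and 3.85% of all tested genes did. The median log2 ratio was 0.30 against 0.03 over all genes tested and -0.01 for the same list in the other barcodes. Besides Pcdh7, Cdh6 stood at 125 and 222 CPM (0.83), Cdh7 at 29.0 and 61.2 CPM (1.08) and Cdh9 at 39.8 and 85.5 CPM (1.10). Pcdh9 stood at 1190 and 1815 CPM (0.61) and Pcdh11x at 31.4 and 51.0 CPM (0.70). Cdh6, Cdh9 and Pcdh9 were each higher in 6 of 8 sub-clusters and Cdh7 in 5, and Pcdh9 had -1.55 in sub-cluster 4. The median ratio by sub-cluster was 0.61 for Cdh9. It was short of the threshold for Cdh6 (0.49), Cdh7 (0.31) and Pcdh9 (0.22). One cell gave 29.8% of the mutant Cdh9 UMIs, and Cdh18 (0.67) had a ratio of 0.18 in female cells and of 0.57, short of the threshold, without sub-clusters 6 and 8. Cdh11 fell, from 33.8 to 21.2 CPM. Cdh2, the general neuronal cadherin, was 269 and 322 CPM and not past the threshold.

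Homeobox genes related to the selecting factors were listed by family, and their counts stand beside the 5.36% of all tested genes that rose and the 3.85% that fell. In the TALE list 0 of 9 tested genes passed the threshold, among them Meis1 at 244 and 340 CPM (log2 0.48) and Meis2 itself at 1487 and 1573 CPM (0.08). In the LIM list of 10 tested genes Isl1 rose and Lmo3 fell. Every Isl1 UMI came from a single cell in each library, and the control had 0 without sub-clusters 6 and 8. Lmo3, a LIM-only cofactor, stood at 92.2 and 57.1 CPM (-0.69) and was higher in 4 sub-clusters and lower in 4. Lhx2 was 372 and 441 CPM (0.25) and not past the threshold.

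The POU factors Pou3f1 (62.5 and 133 CPM, 1.09) and Pou3f2 (253 and 395 CPM, 0.65) and Neurod1, a granule lineage factor (25.3 and 45.8 CPM, 0.86), were the 3 of 15 tested genes of the cerebellar nuclear list that rose, and none fell. Of all tested genes 5.36% rose and 3.85% fell. Pou3f1 was higher in the mutant cells of all 8 sub-clusters and had 0.00 in the other barcodes. Neurod1 was highest in sub-cluster 6, at 146 and 388 CPM, and without sub-clusters 6 and 8 it had 38 and 37 UMIs, a log2 ratio of -0.28. In the tectal list of 16 tested genes Zfhx4 (178 and 284 CPM, 0.68) and Nr2f2 rose, and Tfap2b (323 and 143 CPM, -1.17), Lef1 (-0.83) and Nr2f1 (-0.67, and -1.95 without sub-clusters 6 and 8) fell. One cell gave 52.3% of the mutant Nr2f2 UMIs. The median of the tectal list was -0.32, and Tfap2d had 0.49, short of the threshold.

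Zfhx4 and Tfap2b levels went with sub-clusters, whose cell numbers differed between the libraries. Zfhx4 was highest in sub-cluster 5 (582 and 596 CPM) and was higher in 4 sub-clusters and lower in 4. Tfap2b was lower in 7 of 8. In sub-cluster 1, where Tfap2b was highest (1117 and 898 CPM), its log2 ratio was -0.32, short of the threshold. Foxp2 rose from 368 to 880 CPM (1.26) and was higher in 7 of 8, with ratios by sub-cluster from -1.04 to 3.42. In the thalamic and pretectal list Foxp2, Irx1 (9.45 and 17.7 CPM) and Calb2 were the 3 of 7 tested genes that rose, against 5.36% of all tested genes. Calb2 had -0.07 in female cells and 0.44 without sub-clusters 6 and 8, where Irx1 had 1.58. Sub-cluster 3 had 26 control and 63 mutant cells, sub-cluster 5 had 21 and 52, and sub-cluster 1 had 42 and 24. The summed levels therefore mix the numbers of cells with the levels per cell. Within sub-clusters 3 and 5, where Foxp2 was high, its log2 ratios were 0.03 and 0.58, and those of Zfhx4 were 0.08 and 0.04. How much of the summed ratios came from cell numbers was not tested.

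Glutamate, GABA-A and glycine receptor genes are set beside the 5.36% of all tested genes that rose and the 3.85% that fell. Of 15 ionotropic glutamate receptor genes tested, the kainate receptor subunits Grik2 (363 and 630 CPM, 0.79), Grik3 (17.9 and 29.0 CPM, 0.70) and Grik5 (42.9 and 72.5 CPM, 0.76) rose and none fell. Grik2 was higher in 6 of 8 sub-clusters, with ratios from -0.83 to 0.75 and a median of 0.49, short of the threshold. It was among the leading genes of sub-cluster 5, which had 21 control and 52 mutant cells. The AMPA receptor subunit Gria2 was 679 and 718 CPM and the NMDA receptor subunit Grin2b 323 and 432 CPM, both short of the threshold. Of 14 GABA-A and glycine receptor genes the glycine receptor subunits Glra2 (44.2 and 74.2 CPM) and Glra3 (10.5 and 16.8 CPM) rose. The list medians were 0.17 and 0.21.

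Among 25 tested axon guidance genes, which steer growing axons, 3 rose and 2 fell, where 5.36% and 3.85% of all tested genes did. Unc5d, a netrin receptor, stood at 330 and 509 CPM (0.62), Sema3a, a repulsive ligand, at 21.6 and 39.7 CPM (0.88), and the ephrin Efnb2 at 10.1 and 19.4 CPM (0.94). The semaphorin coreceptors Plxna2 (27.0 and 17.1 CPM) and Plxna4 (64.5 and 40.0 CPM) fell, and Plxna2 had -0.56, short of the threshold, without sub-clusters 6 and 8. A single mutant cell gave 31.4% of its Sema3a UMIs. The high expressors Robo1 (1742 and 2064 CPM), Robo2 (1498 and 1721 CPM) and Dcc (2022 and 2450 CPM), receptors for Slits and netrin, were short of the threshold. Of 15 synapse organiser genes Ntng1 rose (182 and 328 CPM, 0.85), and it was higher in 7 of 8 sub-clusters. Its ratios by sub-cluster ran from -0.85 to 1.19, with a median of 0.31, short of the threshold.

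The neuropeptide, maturation and newborn neuron lists each had 1 or 2 genes past the threshold. Cck fell from 142 to 70.5 CPM (-1.01), with -0.77 in female cells, and was the 1 of 4 tested neuropeptide genes past the threshold. It was lower in 7 of 8 sub-clusters. Within sub-clusters 1 and 2, where Cck was highest, its log2 ratios were -0.43 and -0.08, short of the threshold. Sub-cluster 1 had 42 control and 24 mutant cells. The part of cell numbers in the summed Cck ratio was not tested. Sst (0.30) and Tac1 (0.09) did not pass the threshold. Of 19 synaptic vesicle and maturation genes Sv2b rose on 19 and 42 UMIs and none fell. Of 13 newborn neuron genes Neurod1 rose, though not without sub-clusters 6 and 8 (-0.28), and Nhlh2, a basic helix-loop-helix factor, fell from 29.4 to 15.7 CPM. Kcnip4, which encodes a potassium channel interacting protein, rose (411 and 682 CPM, 0.73). Of 6 tested glutamate release genes 0 passed the threshold.

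The gene altered in the mutant mice was scarce in the selected cells. Cxcr4 had 22 UMIs in the control and 20 in the mutant cells, or 7.43 and 5.80 CPM (log2 -0.36), against 27.7 and 24.6 CPM in the other barcodes and 62.1 and 61.6 CPM in granule progenitors. Counts of the gene do not tell its alleles apart, so they check no label. Of 13 tested genes of the CXCL12-CXCR4 list Cxcl12 rose (14.5 and 31.3 CPM) and the scavenger receptor Ackr3 fell (11.5 and 5.51 CPM). A single cell gave 69.8% of the control and 43.5% of the mutant Cxcl12 UMIs, and its log2 ratio was -0.89 in female cells and -0.98 without sub-clusters 6 and 8. Ackr3 had -0.53 without them, short of the threshold. The list median was -0.02.

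Genes of other cell types and of RNA quality completed the account. Among the haemoglobin and erythroid genes 3 of 3 tested rose, with 87.8% of the mutant Hbb-bs UMIs in a single cell and a log2 ratio of 0.23 in female cells and 0.17 without sub-clusters 6 and 8 against 3.18 in all selected cells. Of 9 tested Purkinje genes 5 rose, against 5.36% of all tested genes, and a single mutant cell gave 65.9% of the Car8 UMIs. Of the AP-1 and immediate early genes Jund was the 1 of 10 that passed the threshold, and Fos stood at 435 and 306 CPM (-0.50). Ribosomal protein genes had a median of -0.33, with 5 of 92 past the threshold and all 5 lower, against -0.21 in the other barcodes. The 13 mitochondrial genes had a median of -0.25 and 0 passed. The part of these differences in the other results was not tested.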

How the data were processed

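Single-cell libraries of 1 control and 1 mutant sample (10x Chromium 3', per the labels' protocols) were deposited as UMI count matrices. The submitters' processing notes name Cell Ranger 7.2, bcl2fastq 2.20.0.4222 and the mm10 build. Counts were used as the authors deposited them; barcodes had to show 500 genes or more and no more than 10% mitochondrial UMIs. UMIs were summed over selected cells per library and divided by their total (CPM). Genes were compared from a sum of 50 UMIs upward, and a 1.5-fold difference was a call. Intervals are exact (Clopper-Pearson, Poisson or conditional binomial, 95%). Named genes are those of the gene lists, the 12 higher and 12 lower genes whose interval bound nearest to equality lay farthest from it (without sex-linked, mitochondrial, ribosomal, haemoglobin and predicted genes), the 20 genes with the highest fold over other kept barcodes, and 6 genes per sex. The members and lists were chosen with earlier results of these data known. Sub-clusters used scanpy 1.11.5 (Leiden), doublets were scored with Scrublet and kept, and the ratio procedure was tested on simulated data. Thinning, TMM (edgeR 4.0.16) and DESeq2 1.42.0 size factors, other filters, stricter and looser selection, single sexes and removal of doublet calls were alternatives. Gene positions and promoter windows are on GRCm38 (mm10). Python 3.11.15, numpy 2.4.6, scipy 1.17.1, pandas 2.3.3 and R 4.3.3 were used. Samples were not replicated, so no p-values are given. Values of a few list genes are not reported here.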

Additional observations from a re-analysis of the deposited data

Results flagged for a closer look

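The share of kept barcodes that met the rule moved in opposite directions in the 2 sexes. The mutant to control ratio was 1.66 in female and 0.164 in male barcodes, and each interval lay on its own side of 1. The difference was not tested, because each genotype has 1 library.

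Barcodes outside the quality filter were used in no comparison. Of 1233 such control barcodes 6 met the gene conditions, or 0.487% (0.179 to 1.06), and of 1357 mutant barcodes 4 did, or 0.295% (0.0804 to 0.753). All were kept out by more than 10% mitochondrial UMIs.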

How the results depend on the processing

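The share of selected cells stayed near equal in the 2 libraries under every setting that kept both sexes, with mutant to control ratios from 0.975 (5000 UMIs per cell) to 1.13 (2 UMIs of each gene required). Split by sex it was 1.66 in female and 0.164 in male cells. The counts of genes past 1.5-fold followed the minimum of UMIs: 973 higher and 774 lower with 20 UMIs, 177 and 74 with 200 UMIs, and 1947 and 1733 with no minimum. The balance of the calls moved too: 50.1% of called genes were higher with TMM factors (476 and 475) and 48.0% when Gad2 and Eomes were not used for selection (450 and 487), against 58.1% as reported. Signs turned for Col1a1 (-2.80 without Scrublet calls, -2.25 without sub-clusters 6 and 8), for the vascular list median (-2.80, -2.25, and -2.20 in female cells), for the Purkinje median (-0.026 with 1000 genes and 5% mitochondrial UMIs), for the sex-linked median (0.15 in female cells) and for Tnc (0.046 in male cells, on 10 and 3 UMIs). The causes were not tested. Of the values for named genes 197 of 254 were within the counting error of the reported one and 54 moved with the same sign. For list medians 294 of 362 were within a fixed log2 distance of the reported one, and 63 moved further. A list median was counted as turned only where the reported one was past 1.5-fold, so medians that moved include changes of sign. The GABAergic interneuron median, for example, was -0.56 as reported and 0.55 in female cells. Leaving out sub-clusters 6 and 8, or the single richest cell, was chosen after seeing the data. Genes with few UMIs in the selected cells are limited by depth. No paired analysis was possible because each genotype has 1 library.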
